A study of Mus musculus with 2 samples.

Results

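Cd4-positive Cxcr6 NKT-like cells are liver T cells that carried transcripts of the T cell receptor alpha constant region (Trac), of the chemokine receptor Cxcr6 and of the coreceptor Cd4, with no transcript of the variable segment Trav11. They were selected on these transcript counts. A member had at least 1500 UMIs (unique molecular identifiers, each marking 1 captured transcript) with under 10% of them mitochondrial, and at least 1 UMI each of Trac, Cxcr6 and Cd4. It had 0 UMIs of Trav11, Cd8b1 and Cd79a, fewer than 2 of Icam1 and Tnfrsf9 together, and fewer than 8 of the interferon-induced genes Ifit1, Ifit3, Isg15, Rsad2 and Usp18 together. By this rule 817 of 16052 qualifying cells were members, 433 of 9002 in the vehicle library and 384 of 7050 in the antibiotics library.

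The 2 libraries hold CD45+ leukocytes sorted from the livers of mice and sequenced with droplet 3' single-cell RNA-Seq. One library is from mice given vehicle. The other is from mice whose drinking water for 1 week held 4 antibiotics, ampicillin and metronidazole each at 1 mg/mL and vancomycin and neomycin each at 0.5 mg/mL, and the mice of both groups were 6 weeks old. There was 1 library per condition, so treatment and library cannot be told apart, cells were not taken as replicates, and no test was run. Every interval below is a 95% interval that covers counting error only, except those over list genes in the last section. The mice were female. The study's methods name C57BL/6 among several strains without tying these libraries to one, and no source used here gives the number of mice per library.

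NKT cells are T cells that read lipid antigens held by CD1d instead of peptides held by classical MHC molecules, and they carry receptors otherwise found on natural killer (NK) cells. Mouse invariant NKT cells pair a Trav11 (V alpha 14) alpha chain with a small set of beta chains, depend on the transcription factor PLZF (Zbtb16), and exist in CD4-positive and CD4-negative forms. Liver NKT cells patrol the sinusoids and are held there by CXCR6. Cxcr6 is also carried by other tissue-resident T cells, so the 3 transcripts do not by themselves show restriction by CD1d. Reads from a 3' kit seldom reach a variable segment, which sits at the 5' end, so a count of 0 for Trav11 does not show that a cell lacks that chain.

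The label was checked against genes the rule did not use. Id2, a transcriptional regulator of innate-like lymphocytes, had a UMI in 98.6% of vehicle and 98.7% of antibiotics members, against 38.3% and 52.4% of T cells with Cd4 but no Cxcr6 UMI. Il2rb, the receptor chain for IL-15 and IL-2, had one in 82.0% and 81.2% of members, against 21.6% and 33.8% of those T cells. Zbtb16 was seen in 25.6% and 17.7% of members, against 5.56% and 3.45% of those T cells and 0.275% and 0.557% of B cells. These 3 genes were thus seen more often in members than in the other Cd4 T cells of either library. They are 3 of 20 listed NKT identity genes, and Slamf6, on the same list, went the other way. Slamf6 was at 54.97 CPM (defined below) in members against 212 CPM in those T cells with vehicle. With antibiotics it was at 87.8 against 231 CPM. The summed NKT beta chain segments were scarce and went both ways. They were at 6.87 against 10.4 CPM with vehicle and 8.54 against 5.55 CPM with antibiotics. When every cell was thinned to 1500 UMIs, Zbtb16 was seen in 8.55% and 8.59% of members and 0.0393% and 0.464% of B cells, Il2rb in 50.4% and 51.0% against 3.15% and 3.71%, and Id2 in 96.1% and 95.3% against 7.91% and 10.5%. B cells here are cells with Cd79a and Ms4a1 and no Trac, with medians of 2532.5 and 2148 UMIs where members had 4422 and 3749.5. Foxp3, the factor of regulatory T cells, had a UMI in 1 vehicle member (0.231%) and in 0.521% of antibiotics members.

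Most members rested on few Cd4 transcripts. In the vehicle library 348 of 433 members had exactly 1 Cd4 UMI, and in the antibiotics library 326 of 384 did. Exactly 1 Cxcr6 UMI was found in 38 and 73 members and exactly 1 Trac UMI in 15 and 34. Cd4 alone was at 246 CPM (counts per 1e6 of the members' summed UMIs) and 273 CPM, Cxcr6 at 1145 and 915 CPM, and Trac at 1439 and 1228 CPM. As a measure of free RNA in the droplets, 2710 vehicle and 1142 antibiotics cells with Cd79b and Ms4a1 but no Cd3e carried Cd4 in 1.14% and 0.963%, Cxcr6 in 6.53% and 7.01%, and Trac in 11.03% and 11.3%. All 3 transcripts together were found in 6 (0.221%) and 3 (0.263%) of those cells.

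The limits of the rule cut through a continuous range. Cells that failed at Cd79a alone numbered 135 in the vehicle library and 59 in the antibiotics library, at Trav11 alone 44 and 66, and at Cd8b1 alone 21 and 9. With the Cd79a limit lifted, a setting not planned in advance, 568 of 9002 vehicle cells (6.31%) and 443 of 7050 antibiotics cells (6.28%) met the rule. For Icam1 and Tnfrsf9, 85 and 56 members had exactly 1 UMI, and 16 and 16 cells that met every other limit had exactly 2. For the interferon sum, 3 and 2 members stood at 7 UMIs, and 5 and 1 cells that met every other limit stood at 8. The shallowest member held 2053 UMIs with vehicle and 1967 with antibiotics, so the depth limit itself removed few candidates.

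The vehicle library held 41474311 UMIs and the antibiotics library 29811401. The members held 2182937 and 1640101 of them, with medians of 1580 and 1376 detected genes and of 1.68% and 2.03% mitochondrial UMIs. Scrublet, a doublet caller, marked 11 (2.54%) and 9 (2.34%) members as possible doublets, and these were kept. Of the barcodes that qualified, 93 appeared in both libraries, but 0 barcodes were members in both.

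The members' share of qualifying cells was close in the 2 libraries. It was 4.81% (4.38 to 5.27, Clopper-Pearson) with vehicle and 5.45% (4.93 to 6.0) with antibiotics, a ratio of 1.13 (0.984 to 1.30), so no difference was detectable at this count. The related cells without a Cd4 UMI, which met every other limit, went from 18.9% to 36.8% of qualifying cells, a ratio of 1.95 (1.84 to 2.08). Cxcr6 cells with a Trav11 UMI went from 2.46% to 6.31%, a ratio of 2.57 (2.18 to 3.04), and Cd4 T cells without a Cxcr6 UMI from 1.80% to 2.06%, a ratio of 1.14 (0.907 to 1.44). The interval for the members did not overlap those of the Cd4-negative and Trav11 groups. The other cells in each library set this denominator.

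Within T cells the members made up a smaller part of the antibiotics library. Of cells with Trac they were 8.75% with vehicle and 7.44% with antibiotics, a ratio of 0.850 (0.739 to 0.977). Of cells with Trac and Cxcr6 they were 12.1% and 9.11%, a ratio of 0.755 (0.656 to 0.868). Of the members pooled with the Cd4-negative Cxcr6 cells, members were 20.3% and 12.9%, a ratio of 0.634 (0.551 to 0.729). A cell enters this group by a Cd4 UMI, and the median depth of Trac cells of this kind also differed, at 4016 UMIs with vehicle and 3536 with antibiotics in the Cd4-negative group. With every qualifying cell thinned to 1500 UMIs before the rule was applied, members were 1.57% and 1.82% of qualifying cells, a ratio of 1.16 (0.905 to 1.48). The part of depth in the ratios within T cells was not tested.

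**Figure D1:**
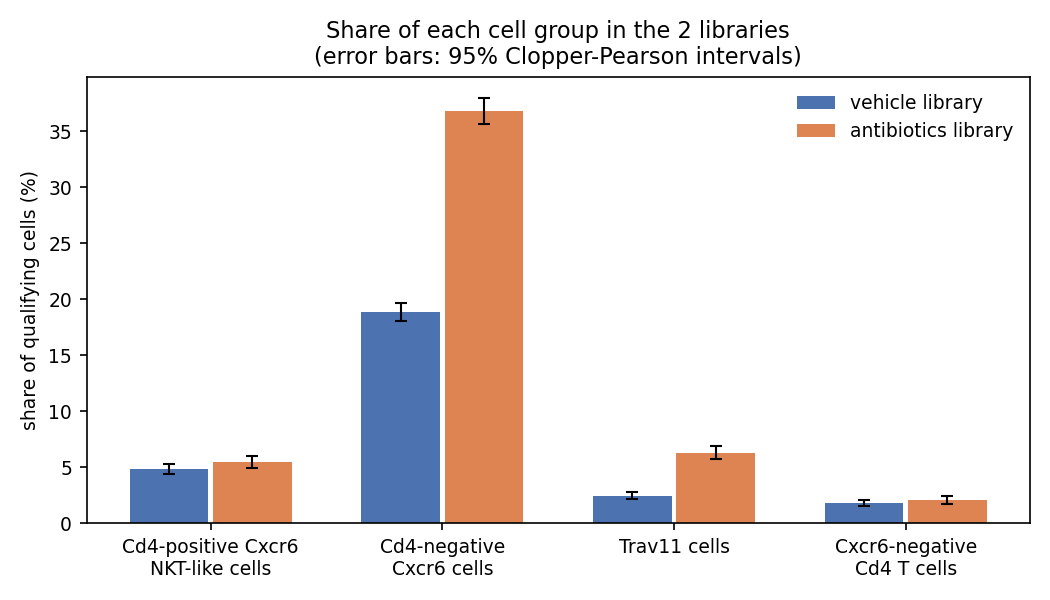
Bars show each group's share of qualifying cells (%) in the vehicle and antibiotics libraries, with Clopper-Pearson 95% intervals as error bars. Members held 4.81% and 5.45%, while the Cd4-negative Cxcr6 cells rose from 18.9% to 36.8% and the Trav11 cells from 2.46% to 6.31%.

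Antibiotics members were then compared with vehicle members gene by gene, on the sum of UMIs over the members of each library. Among 2409 genes with a mean of at least 50 CPM, 48 (1.99%) were at least 1.5-fold higher in antibiotics members and 144 (5.98%) were at least 1.5-fold lower. Lower values were thus the more common, and the median log2 ratio over the 2409 genes was -0.09. After each member was thinned to 1500 UMIs, 110 genes were higher and 205 lower. Over the 9349 genes with 10 or more UMIs, the measure used for the gene lists, 4319 were higher and 5030 lower, with a median log2 ratio of -0.03. The genes named next had the largest ratios by the bound of the interval nearest to 1.

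The 12 named higher genes were led by Cirbp and Il7r. Cirbp, a cold-inducible RNA-binding protein, was at 124 CPM in vehicle members and 388 CPM in antibiotics members, a ratio of 3.13 (2.71 to 3.62). Il7r, the receptor chain for the survival cytokine IL-7, went from 129 to 319 CPM, a ratio of 2.47 (2.13 to 2.86). Klrb1c, which encodes the receptor NK1.1, went from 274 to 540 CPM, a ratio of 1.97 (1.78 to 2.19). It had a UMI in 58.7% of vehicle and 78.6% of antibiotics members, and in 31.4% and 52.9% after thinning, against 2.60% and 3.44% of thinned B cells. The rise was therefore one of the share of members with the transcript as well as of the sum, since the 10 highest members held 13.4% of its UMIs with vehicle. Serinc3, a membrane protein, went from 197 to 434 CPM, and Zfp36l2, an mRNA-decay factor that restrains proliferation, from 152 to 319 CPM. Dusp2, a phosphatase of MAP kinases, went from 147 to 299 CPM, Rbm3, a further cold-inducible RNA-binding protein, from 633 to 1119 CPM, and Gimap5, a GTPase for lymphocyte survival, from 286 to 483 CPM. Smim4, Tmem176b, Vars and the non-coding Gm26917 completed the 12, with ratios of 2.08, 1.92, 1.87 and 1.85.

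The lower genes were led by a heat shock gene and by genes of dividing cells. Hspa1a, an inducible chaperone, had 315 UMIs in vehicle members and 4 in antibiotics members, a ratio of 0.0169 (0.00458 to 0.0437). The histone gene Hist1h2ap had 333 and 18 UMIs and Stmn1, a microtubule regulator of dividing cells, 372 and 25. The 10 highest vehicle members held 90.1% and 73.1% of these UMIs, and without the cycling and class II members described below the log2 ratio of Stmn1 was 0.044. Gzmb, the cytotoxic protease granzyme B, went from 183 to 53.7 CPM, a ratio of 0.293 (0.230 to 0.370). Ifi27l2a, an interferon-induced gene, went from 1006 to 356 CPM, Lgals1, the glycan-binding galectin 1, from 752 to 266 CPM, and Fos, an AP-1 subunit, from 128 to 43.9 CPM. Tuba1b, Rtp4, Hmgn2, Hmgb2 and Dynll1 completed the 12, with ratios of 0.409, 0.377, 0.431, 0.485 and 0.462.

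**Figure D2:**
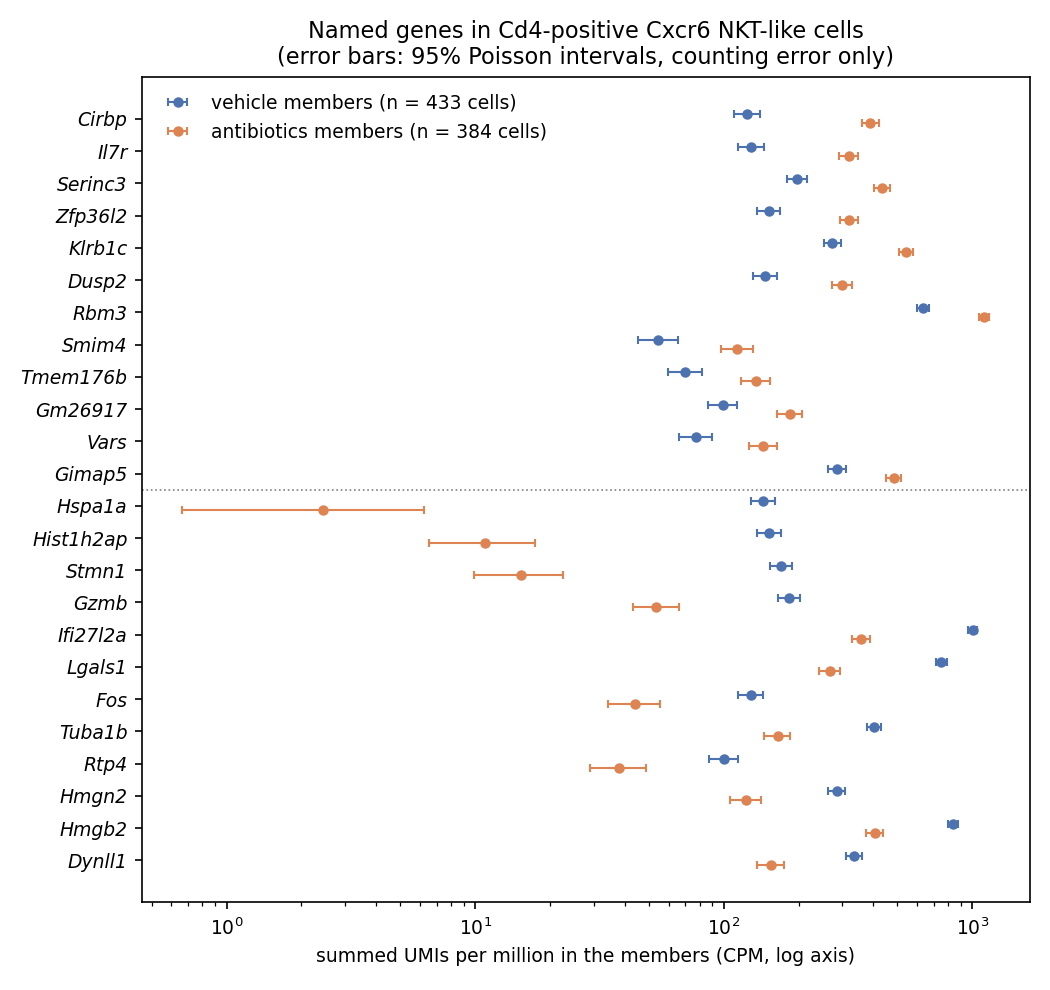
Level in CPM (log axis) of the 12 named higher genes (above the dotted line) and the 12 named lower genes in the members of each library, with Poisson 95% intervals. The intervals of the 2 libraries do not overlap for these genes, which were picked for large ratios, and Hspa1a fell furthest, from 144 to 2.44 CPM.

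No measured gene of the T cell receptor complex was past 1.5-fold, while 2 NKT identity genes were past it higher and 1 lower. Of the 15 NKT identity genes of at least 50 CPM, 2 were past 1.5-fold higher and 0 lower. Over all 2409 genes at that level these shares were 1.99% and 5.98%. Of 14 measured genes of the T cell receptor complex, 3 were higher and 11 lower, with a median log2 ratio of -0.14, and none was past 1.5-fold. Cd3g, a signalling chain of the complex, went from 1668 to 1216 CPM and Cd3e from 524 to 423 CPM. Of 20 measured NKT identity genes, 8 were higher and 12 lower, with a median of -0.09. Klrb1c and Slamf6, a receptor of the SLAM family, were past 1.5-fold higher, and Itga1, an integrin chain, was past 1.5-fold lower at 31 and 13 UMIs. Itga1 was named after its values were seen. Zbtb16 was at 67.8 and 52.4 CPM, a ratio of 0.773 (0.586 to 1.02), Tbx21, the factor T-bet of the interferon gamma programme, at 97.6 and 90.2 CPM, and Gata3, the factor of the IL-4 programme, at 97.1 and 118 CPM. None of these last 3 intervals excluded a ratio of 1.

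The NK receptors moved apart from one another. Of 18 measured, 6 were higher and 12 lower, with a median log2 ratio of -0.50. Over the 9 of at least 50 CPM the median was 0.0059, and the summed CPM of the list went from 1704 to 1835, a ratio of 1.08 (1.03 to 1.13). Besides Klrb1c, Klrc1 (the inhibitory receptor NKG2A) went from 98.9 to 152 CPM and Klrk1 (the activating receptor NKG2D) from 223 to 277 CPM. With at least 2 Cxcr6 and 2 Cd4 UMIs required, which left 74 and 46 members, Klrc1 and Klrk1 lay on the lower side instead, with log2 ratios of -0.80 and -0.03. Klrd1, the partner chain CD94 of NKG2A, was level at 261 and 262 CPM, with a ratio of 1.0 (0.884 to 1.14). Lower values were found for Cd160, a receptor of the immunoglobulin family, from 320 to 227 CPM, and for the signalling adaptor Fcer1g, from 103 to 58.5 CPM. The inhibitory Ly49 genes were low throughout, with Klra1 at 32.1 and 8.54 CPM and Klra3 at 36.2 and 19.5 CPM. In B cells 19 of 21 measured NK receptor genes were lower, with a median log2 ratio of -1.32. The list's medians were -0.95 in Cd4-negative Cxcr6 cells, -0.74 in Trav11 cells and -0.38 in Cd4 T cells without Cxcr6. The part of this background in the members' lower values was not tested. The number of NK receptor genes with a UMI had a median of 3 per member in both libraries.

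Effector products went both ways. Ccl5, a chemokine of effector lymphocytes that draws in other leukocytes, went from 3376 to 4082 CPM, a ratio of 1.21 (1.17 to 1.25), and had a UMI in 92.8% and 94.0% of members. Xcl1, a chemokine for cross-presenting dendritic cells, went from 317 to 160 CPM, and Ifng, interferon gamma, from 82.9 to 40.9 CPM, a ratio of 0.493. For Il4, the type 2 cytokine that NKT cells release early, the values were 88.4 and 80.5 CPM, and the interval of the ratio of 0.910 (0.724 to 1.14) held 1. Members with an Ifng UMI fell from 26.1% to 10.4%, and from 10.4% to 4.69% after thinning, where B cells had 0.551% and 0.186%. Ccl4 and Ccl3, chemokines of activated killer cells, were low, at 27.9 and 6.71 CPM and at 10.5 and 2.44 CPM. Of 13 measured cytokines 3 were higher and 10 lower (median log2 ratio -0.18), and of 11 chemokines and receptors 4 were higher and 7 lower (median -0.32). The summed CPM of the cytokines went from 1845 to 1572 and that of the chemokines and receptors, most of it Ccl5, from 4555 to 4951, a ratio of 1.09 (1.06 to 1.12).

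Some genes of the study's interest were scarce in these cells. Ccr1, a receptor for Ccl5, had 0 UMIs in both libraries, which allows up to 1.37 and 1.83 CPM, and the cytokine gene Il10 had 0 and 2 UMIs. Cd244, a receptor for CD48, had 13 and 8 UMIs, too few to compare. Its ligand Cd48 went from 358 to 205 CPM, a ratio of 0.572, within a SLAM family list in which 3 of 9 measured genes were higher and 6 lower. Slamf6 went from 54.97 to 87.8 CPM and Slamf7 from 103 to 49.4 CPM, so members of this family moved both ways.

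Granule genes fell in the sum. Of 12 measured, 4 were higher and 8 lower, with a median log2 ratio of -0.26. Nkg7, a granule membrane protein, went from 1845 to 1302 CPM and Ctsw, a protease of killer cells, from 540 to 358 CPM. Gzmb had a UMI in 29.8% of vehicle and 10.4% of antibiotics members, and in 18.0% and 4.69% after thinning, against 2.91% and 1.11% of thinned B cells. Gzma, granzyme A, went from 203 to 117 CPM, but its 10 highest members held 83.6% and 92.2% of its UMIs. After thinning it was seen in 6.70% and 2.86% of members and in 6.92% and 2.04% of B cells, so the share of members with Gzma was at or near the B cell background. Fasl, the death ligand, was at 76.0 CPM with vehicle and 89.6 CPM with antibiotics, with a ratio of 1.18 (0.938 to 1.48).

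The interferon response list fell almost as a whole. Of 36 measured genes 35 were lower and 1 was higher, Slfn5 at 22 and 24 UMIs, and the median log2 ratio was -0.65. Psmb8, an interferon-induced proteasome subunit, went from 1112 to 899 CPM, a ratio of 0.808 (0.757 to 0.863). Per cell, the list took a median of 0.591% of a vehicle member's UMIs and 0.379% of an antibiotics member's. The interferon limit of the rule caps this list from above and left out 19 vehicle and 3 antibiotics cells that met every other limit. MHC class I presentation genes were 2 higher and 16 lower of 18, with a median of -0.35. B2m, the light chain of class I, went from 7103 to 5011 CPM, and H2-K1, a heavy chain, from 2409 to 1877 CPM.

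Cytoskeletal and calcium-binding genes also fell together. Of 19 S100, galectin and cytoskeleton genes 18 were lower and 1 higher, with a median log2 ratio of -0.52. Tmsb4x, an actin-sequestering peptide, went from 20430 to 13067 CPM, Actb from 7599 to 4914 CPM and Actg1 from 2685 to 1560 CPM. The list took a median of 5.08% of a vehicle member's UMIs and 3.32% of an antibiotics member's. The upper quartile of antibiotics members, at 4.0%, lay below the lower quartile of vehicle members, at 4.40%.

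The stress genes split by kind. Of 13 measured heat shock genes 11 were lower and 2 higher, with a median log2 ratio of -0.53, and the 2 higher ones were the cold-inducible Cirbp and Rbm3 named above. Hsp90aa1, a stress-induced chaperone, went from 301 to 166 CPM and Dnajb1, a co-chaperone of inducible HSP70, from 104 to 49.4 CPM, while the constitutive Hspa8 went from 1594 to 1388 CPM. Of 21 AP-1 and immediate early genes 5 were higher and 16 lower, with a median of -0.12. Junb, an AP-1 subunit, went from 447 to 263 CPM and Jund from 776 to 635 CPM. Cd69, an early activation antigen, was level at 81.5 and 80.5 CPM, with a ratio of 0.987 (0.782 to 1.24). Of 10 measured genes of the early T cell receptor response, Cd69 among them, 8 were higher and 2 lower, with a median of 0.57. Only 2 of them reached 50 CPM, with a median of -0.16. The list's median was 0.05 in Cd4-negative Cxcr6 cells, -0.08 in Trav11 cells, -0.21 in Cd4 T cells without Cxcr6 and 0.26 in B cells.

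Glucocorticoid-responsive and translation genes were on the higher side, and survival genes went both ways. Of 14 measured survival and death genes 6 were higher and 8 lower, with a median log2 ratio of -0.17. Bcl2, which blocks apoptosis, went from 360 to 560 CPM, a ratio of 1.56 (1.42 to 1.72), while Bcl2a1b, a relative, went from 291 to 243 CPM. Of 12 glucocorticoid-responsive genes 9 were higher and 3 lower, with a median log2 ratio of 0.55. Tsc22d3, which encodes the glucocorticoid-induced leucine zipper, went from 42.6 to 84.8 CPM and Txnip, an inhibitor of glucose uptake, from 142 to 221 CPM. All 77 ribosomal protein genes were higher, by a median of 0.27, and their sum took a median of 32.1% of a vehicle member's and 38.1% of an antibiotics member's UMIs. The 13 genes of oxidative phosphorylation on the mitochondrial genome were all higher, with a median of 0.21, while of 76 nuclear ones 17 were higher and 59 lower, with a median of -0.17.

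**Figure D3:**
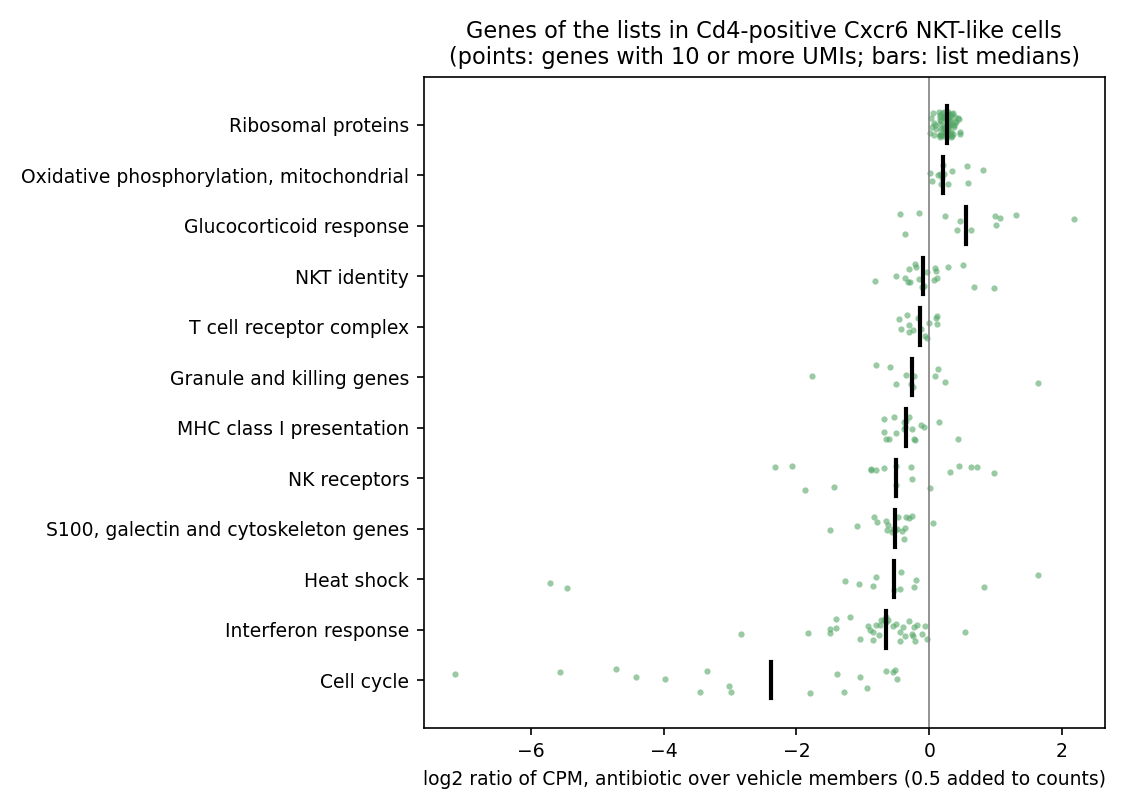
Each point is the log2 ratio of CPM, antibiotics over vehicle members, of 1 listed gene that reached 10 UMIs over both libraries (0.5 added to counts), and bars are list medians. The interferon list sits left of 0 apart from 1 gene (median -0.65), the ribosomal list sits right of 0 throughout (median 0.27), and the cell cycle list spreads furthest (median -2.39).

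**Figure D4:**
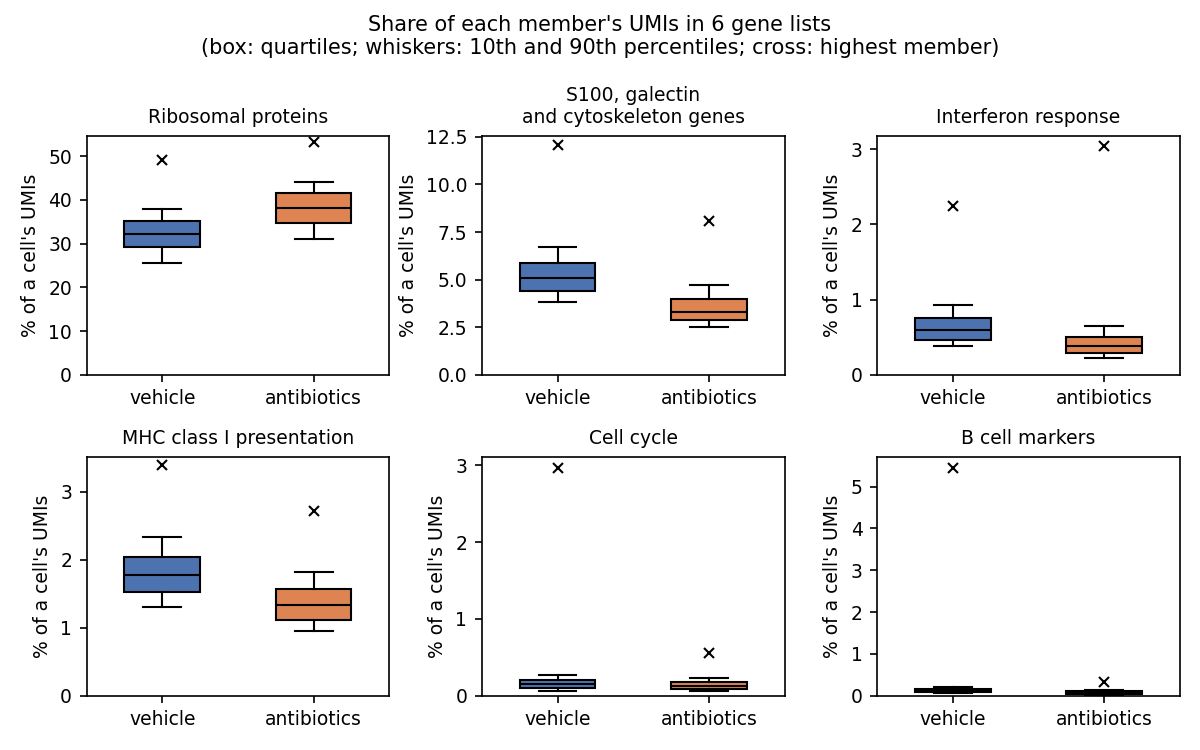
Percent of each member's UMIs in 6 gene lists by library, with boxes at the quartiles, whiskers at the 10th and 90th percentiles and a cross at the highest member. The interferon list was lower from the 10th to the 90th percentile, with medians of 0.591% and 0.379%, though its highest member was in the antibiotics library (3.04% against 2.24%), whereas the cell cycle medians lay close (0.146% and 0.129%) and the highest members did not (2.97% and 0.557%).

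Few vehicle cells held a large part of the UMIs of some cell cycle genes. The 10 highest vehicle members held 73.1% of the Stmn1 UMIs, but 42.6% of those of Tuba1b and 40.8% of those of Hmgb2. Members with a Tuba1b UMI went from 58.9% to 43.2%, and those with a Hmgb2 UMI from 82.5% to 77.9%. All 18 measured genes were lower in antibiotics members, with a median log2 ratio of -2.39, and Mki67, a marker of dividing cells, had 42 and 1 UMIs. Members in which the list took 0.5% of UMIs or more, a limit set after the values were seen, numbered 20 of 433 (4.62%) with vehicle and 2 of 384 (0.521%) with antibiotics, a ratio of 0.113 (0.0128 to 0.464). With the members deepest in UMIs left out, the median of the list was -0.31. Leaving out the cycling members, which were chosen by this same list, together with the class II members described next gave a median of 0.035, which that choice favours by construction. These 20 had a median of 10762.5 UMIs. Cd4-negative Cxcr6 cells past the same limit were 31 of 1699 (1.83%) with vehicle and 6 of 2597 (0.231%) with antibiotics.

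Transcripts of antigen-presenting cells were carried in part by few vehicle members too. Cd74, the class II invariant chain, went from 514 to 143 CPM, and 1 vehicle member held 387 of its 1121 UMIs. Members with 10 or more class II UMIs (Cd74, H2-Aa, H2-Ab1 and H2-Eb1) numbered 8 of 433 (1.85%) with vehicle and 0 of 384 with antibiotics, which allows a share of up to 0.781% by the limit of 3 counts and 0.956% by Clopper-Pearson. Those 8 had a median of 14326 UMIs, and 3 of them also passed the cell cycle limit. The summed B cell markers stood at 1725 and 801 CPM (14 of 14 measured lower), myeloid markers at 526 and 243 CPM (6 of 7 lower) and hepatocyte markers at 35.7 and 13.4 CPM (3 of 3 lower). The defining B cell marker Cd79a is at 0 in members by the rule, and the share of member UMIs estimated as free RNA was 7.40% and 7.03%. The part of these markers in the other results was not tested. With the cycling and class II members left out, 45 genes were past 1.5-fold higher and 118 lower, of which 41 and 100 were among those of the full comparison.

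Many of the ratios had a like value in other cells of the same libraries. Cirbp had a ratio of 2.82 in Cd4-negative Cxcr6 cells, 3.0 in Trav11 cells, 2.51 in Cd4 T cells without Cxcr6 and 2.65 in B cells, beside 3.13 in members. For Rbm3 these ratios were 1.89, 1.90, 1.66 and 1.89, beside 1.77, and for Zfp36l2 2.0, 1.97, 1.72 and 1.96, beside 2.11. The interferon list had medians of -0.56, -0.53, -0.44 and -0.46 in those 4 groups, beside -0.65. The heat shock list had medians of -0.62, -0.57, -0.74 and -0.58, beside -0.53. The S100, galectin and cytoskeleton list had medians of -0.67, -0.74, -0.75 and -0.29, beside -0.52. In Cd4 T cells without Cxcr6, Klrb1c also rose, from 49.0 to 165 CPM, and Il7r from 309 to 612 CPM. All of these groups share the same 2 libraries, and the part of the library in the members' ratios was not tested.

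Other ratios stood apart from those of B cells. The ribosomal list, with a median of 0.27 in members and 77 of 77 genes higher, had a median of 0.02 and 44 of 77 genes higher in B cells. In Cd4-negative Cxcr6 cells, Trav11 cells and Cd4 T cells without Cxcr6 its medians were 0.28, 0.31 and 0.16, so the rise was not particular to members. For mitochondrial oxidative phosphorylation genes these medians were 0.21 and -0.01. Fos had a ratio of 0.342 in members and 1.10 in B cells, and Ccl5 1.21 in members, 0.869 in Cd4-negative Cxcr6 cells, 1.21 in Trav11 cells, 1.91 in Cd4 T cells without Cxcr6 and 0.440 in B cells. Gzma had a ratio of 0.573 (0.481 to 0.680) in members, 0.200 in Cd4-negative Cxcr6 cells, 0.326 in Trav11 cells and 0.126 in B cells. Its ratio of 0.372 (0.214 to 0.621) in Cd4 T cells without Cxcr6 had an interval that overlapped that of members. Gzmb had ratios of 0.174, 0.165, 0.428 and 0.152 in those 4 groups, beside 0.293 in members. These differences were not tested. Only their counting intervals can be compared, and these leave out the spread between cells. For Gzma 10 members held 83.6% and 92.2% of the UMIs, and the share of members with it was at or near the B cell background.

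**Figure D5:**
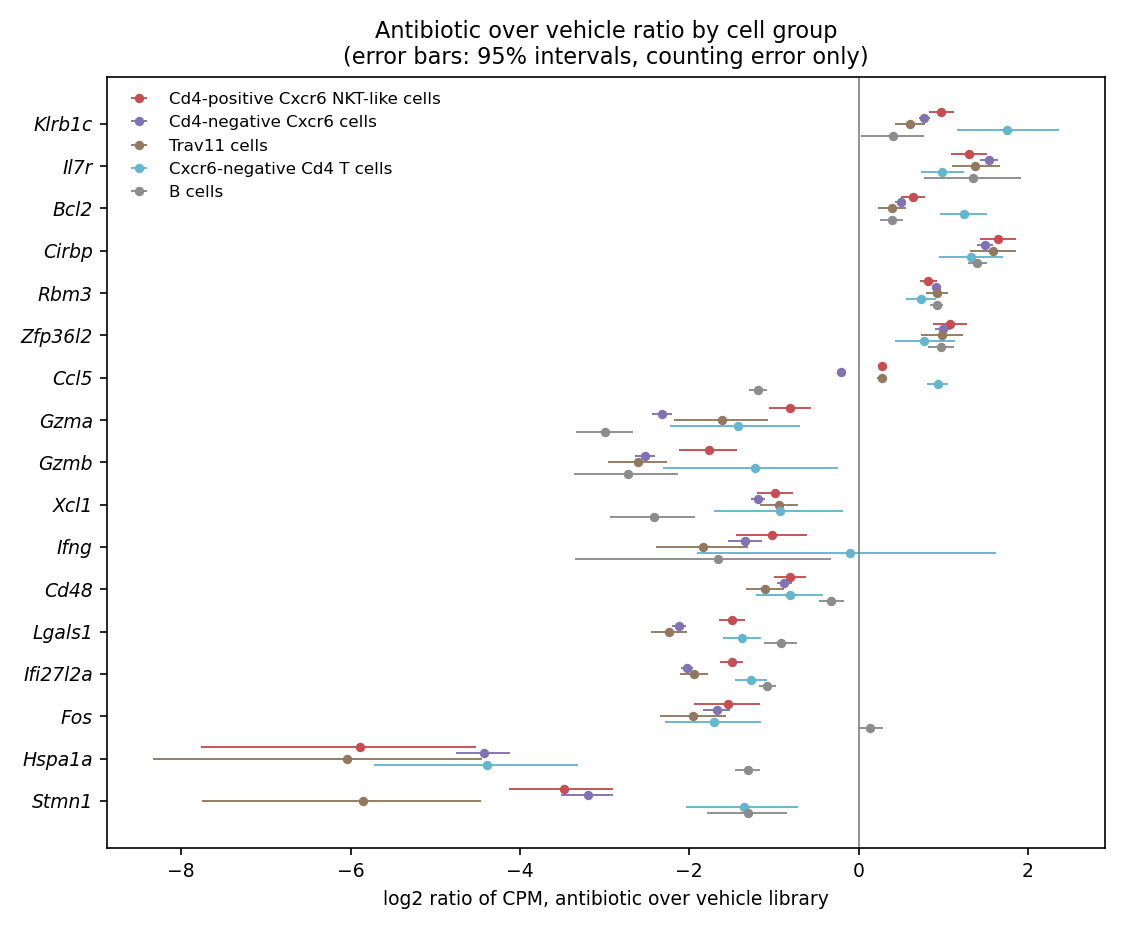
Log2 ratio of CPM, antibiotics over vehicle library, of 17 genes in members, 3 related T cell groups and B cells, with 95% counting intervals. Cirbp, Rbm3 and Zfp36l2 lie close together in all groups, while Ccl5, Fos and Gzma have unlike ratios. The intervals leave out the spread between cells.

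Members varied among themselves. Both T-bet and Gata3 transcripts were found in 64 vehicle members, Tbx21 alone in 98 and Gata3 alone in 101, and the antibiotics members gave 47, 66 and 99. Both Ifng and Il4 were found in 41 vehicle members and 13 antibiotics members, with Ifng alone in 72 and 27 and Il4 alone in 99 and 89. Independent detection was not tested as the source of these pairs. B cells had a UMI of Tbx21 in 1.61% and 1.67%, of Gata3 in 0.747% and 1.39%, of Ifng in 1.30% and 0.464%, and of Il4 in 0.275% and 0.371%. Both Il7r and Klrb1c were found in 90 and 173 members. Tcrg-C1, a constant region of the gamma chain, had a UMI in 155 and 101 members, while Trdc, the delta constant region, which marks gamma-delta T cells, had one in 7 and 7.

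Members with more Cd4 transcripts were compared with those with 1. The 348 vehicle members with 1 Cd4 UMI had a median of 4410 UMIs and the 85 with 2 or more a median of 4634, and in the antibiotics library the 326 and 58 had medians of 3710 and 4014.5. Klrb1c stood at 279 and 257 CPM in these vehicle subsets and at 546 and 510 CPM in the antibiotics subsets. Zbtb16 stood at 67.5 and 69.1 CPM and at 52.6 and 51.7 CPM. Ifng stood at 81.4 and 88.5 CPM in the vehicle subsets and at 32.1 and 84.9 CPM in the antibiotics subsets. Il4 stood at 87.2 and 92.8 CPM and at 71.6 and 126 CPM. Gzma stood at 209 and 181 CPM and at 135 and 22.2 CPM, and Lef1 at 96.0 and 88.5 CPM and at 123 and 48.0 CPM. The antibiotics subset with 2 or more Cd4 UMIs held few UMIs of these genes, 23 of Ifng, 34 of Il4, 6 of Gzma and 13 of Lef1. Vim, the intermediate filament vimentin, was higher with 2 or more Cd4 UMIs in both libraries, at 85.5 against 224 CPM with vehicle and 65.0 against 166 CPM with antibiotics. Its 10 highest members held 57.0% and 70.2% of its UMIs.

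Against the related cells, each library gave its own ratio, and a gene was counted when both passed 1.5-fold the same way. Over Cd4-negative Cxcr6 cells 1 of 2215 genes (0.0451%) was higher in members and 0 (0.0%) were lower. The 1 gene was Vim, at 115 against 73.6 CPM with vehicle and 81.7 against 28.1 CPM with antibiotics. With every cell thinned to 1500 UMIs, 0 genes were higher and 5 lower, so Vim was no longer past 1.5-fold in both libraries. The median absolute log2 ratio over the genes was 0.08 in both libraries, so the 2 groups as gated had near the same profile. With exactly 1 Cd4 UMI in 348 of 433 and 326 of 384 members, a count of 0 does not show that a cell lacks Cd4. The comparison therefore cannot tell cells with Cd4 from cells without it.

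Over Trav11 cells 2 of 2192 genes (0.0912%) were higher in members and 1 (0.0456%) was lower. The higher genes were Gzma, at 203 against 77.6 CPM and 117 against 25.3 CPM, and Glrx, a glutaredoxin, at 119 against 76.6 CPM and 81.7 against 53.5 CPM. As given above, 10 members held 83.6% and 92.2% of the Gzma UMIs, and the share of members with Gzma was at or near that of B cells. The lower gene was Tmem176a, a membrane protein, at 52.7 against 92.7 CPM and 72.6 against 109 CPM. Vim, Glrx and Tmem176a lay outside the naming rule or were singled out after their values were seen. The median absolute log2 ratio was 0.11 with vehicle and 0.10 with antibiotics. Among Trav11 cells 19.9% and 14.8% had a Cd4 UMI.

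Over Cd4 T cells without Cxcr6 the members differed in many genes, 111 of 2132 (5.21%) higher and 64 (3.0%) lower, with median absolute log2 ratios of 0.24 and 0.23. The higher genes included Klrb1c, at 274 against 49.0 CPM with vehicle and 540 against 165 CPM with antibiotics. Ccr2, a chemokine receptor, was at 234 against 43.0 CPM and 201 against 61.1 CPM, and Xcl1 at 317 against 77.2 CPM and 160 against 40.7 CPM. Ckb, Serpina3g and Bcl2a1d were the other named higher genes.

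The named lower genes included Ccr7 and S1pr1. Ccr7, a lymph node homing receptor, was at 21.5 CPM in members against 361 CPM with vehicle and 13.4 against 307 CPM with antibiotics. S1pr1, a receptor for egress from tissue, was at 15.1 against 166 CPM and 29.9 against 209 CPM. Igfbp4, Dapl1 and Actn1 were also among them. Lef1, a factor of naive T cells, was seen after thinning in 11.8% and 16.7% of members against 42.0% and 45.5% of these Cd4 T cells.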

How the data were processed

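The authors sorted CD45+ liver leukocytes, prepared 10x Genomics Chromium 3' version 2 libraries and deposited unfiltered matrices of UMI counts per gene and barcode, unnormalized, against mm10. The submitters' processing notes name Cell Ranger and bcl2fastq, without versions. Counts of identifiers sharing a symbol were summed. Members and gene lists were chosen with earlier results of these data known. Doublets called by Scrublet (scanpy 1.11.5, expected 6%) were kept, and no free RNA was removed.

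UMIs were summed over the members of each library and given as CPM. Ratios carry exact conditional Poisson intervals and shares Clopper-Pearson intervals, computed in Python 3.11.15 with scipy 1.17.1. Cells are not replicates, so no test was run. Genes were counted past 1.5-fold at a mean of at least 50 CPM. A list gene counted as measured from 10 UMIs over both libraries, its ratio was taken after adding 0.5 to the counts, and genes of the rule were left out. Detection was also given after thinning each cell to 1500 UMIs. Related groups met the same limits on depth, Cd8b1, Cd79a, Icam1, Tnfrsf9 and interferon genes.

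Named genes were the 12 higher and 12 lower by the interval bound nearest 1 (among genes that reached 100 CPM in either library and 30 UMIs in all), the 6 higher and 6 lower against each related group, up to 4 of each list by level or by change, and genes the study discusses. The calculation was tested on simulated data. Alternatives covered scaling (TMM in edgeR 4.0.16, median of ratios), filters, thinning, doublets, free RNA and gates, and some were added after the data were seen. No sequence carries these results, so none is printed. Some genes are not reported here.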

Additional observations from a re-analysis of the deposited data

Results flagged for a closer look

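Some genes went opposite ways in members and in a related group of the same 2 libraries, by intervals that each excluded a ratio of 1, and these differences were not tested. Igfbp4, which binds insulin-like growth factors, had an antibiotics over vehicle ratio of 3.83 in members (16 and 46 UMIs) and 0.403 in Cd4-negative Cxcr6 cells. Ccl5 had ratios of 1.21 in members and 0.869 in Cd4-negative Cxcr6 cells, and Klf2, a factor of T cell recirculation, 1.21 (below 1 after thinning) and 0.903. Klrk1 had 1.24 in members and 0.847 in Trav11 cells. Against Cd4 T cells without Cxcr6, the ratio in members and in those cells was 0.840 and 1.08 for Trbc2, a beta chain constant region, 0.860 and 1.32 for the surface protein Ly6c2, 1.26 and 0.665 for Izumo1r, folate receptor 4, and 0.625 and 7.17 for Tcrg-C1. Izumo1r in members lay below 1 with the stricter gate (log2 ratio -0.021), and the Tcrg-C1 ratio of 7.17 (2.45 to 28.5) rests on 4 and 23 UMIs.

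Barcodes too shallow for the rule also held a few candidates. Of barcodes with 500 or more but under 1500 UMIs, 4 of 228 (1.75%) in the antibiotics library and 2 of 432 (0.463%) in the vehicle library met the rest of the rule.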

How the results depend on the processing

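One library per condition leaves no replicate to leave out. No paired analysis was possible because the result comes from no test. Of list medians, 416 values under alternatives stayed within an interval of the median over the genes of the list, 11 moved and 2 reversed. That interval does not measure counting error and was wide for some lists, from -1.97 to 0.976 for chemokines and receptors. Of named genes, 2301 stayed within the counting interval, 216 moved and 18 reversed. The cause was not tested, except that stricter gates and thinning by construction leave fewer UMIs. The share ratio of 1.13 became 0.794 (0.537 to 1.16) with at least 2 Cxcr6 and 2 Cd4 UMIs, 0.850 of Trac cells, 0.755 of Trac and Cxcr6 cells, and 1.57 of cells other than Cd4-negative Cxcr6 and Trav11 cells, the last chosen after seeing the data. The 48 higher and 144 lower genes became 110 higher after thinning (65.1% of the genes past the fold lower, against 75%), 189 and 371 with the stricter gate, and 1410 and 1848 with no filter beyond 1 UMI in each library. The cell cycle median of -2.39 became -0.66 after thinning, -0.31 without the members deepest in UMIs, -0.79 at a mean of 50 CPM and 0.035 without cycling and class II members, a setting chosen after seeing the data. The ribosomal median of 0.27 became 0.30 with TMM and 0.29 with median of ratios, since those scalings changed the antibiotics over vehicle library size by -0.03 and -0.02 (log2) and so raised every gene's ratio. With the stricter gate the AP-1 median became 0.011, and log2 ratios reversed for Ccr2 (0.11), Id2 (-0.063), Klrk1 (-0.033), Klrc1 (-0.80), Klf2 (-0.27), Izumo1r (-0.021), Nfkbia (-0.61), Dusp1 (0.16), Ighm (0.072) and H2-Aa (0.14). After thinning they reversed for Klf2 (-0.049), Klf3 (-0.093) and Cox8a (0.051), without the deepest members for H2afz (0.083) and Tubb5 (0.12), and without cycling and class II members for Stmn1 (0.044), H2afz (0.023) and Tubb5 (0.092). Against Cd4-negative Cxcr6 cells thinning gave 0 higher and 5 lower genes, and against Trav11 cells 6 higher.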
